A study of Mus musculus with 9 samples.

Results

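Genes activated by the transcription factor p53, together with kinases and repair proteins of the DNA damage checkpoint, were followed in the proximal colon of wild-type, heterozygous and mutant cSHMT mice. The set was a list of 34 gene symbols. It was set by gene function, and each gene was represented by the probe set with the highest mean signal over the 9 arrays, called its leading probe set here. Of the 34 genes, 30 had a probe set named by that symbol alone and 27 were bright enough to be tested, out of 8202 genes tested in the whole series. Trp53 itself, Bax, Eda2r and Gdf15 had no probe set named here and were not analysed. Bbc3, Tnfrsf10b and Atm were too dim to be tested.

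Each genotype had 3 mice, each measured on 1 array. cSHMT is the cytoplasmic serine hydroxymethyltransferase encoded by Shmt1, a folate enzyme that passes one-carbon units to thymidylate synthesis. The line had been back-crossed to C57Bl/6 for 10 generations, and the mice were 9 weeks old. Every mouse, the wild-type controls included, had eaten an AIN-93G diet lacking folate and choline since weaning at 3 weeks of age. Its length is labelled as 6 weeks among the sample characteristics but 5 weeks in the growth protocol. No group on a folate-replete diet was analysed here, so each comparison is between genotypes under deficiency. The labels do not describe how the cSHMT allele was made. The tissue was a whole piece of colon, with epithelium, muscle and immune cells together, and 50 ng of its total RNA was amplified before hybridisation.

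The p53 protein is kept low by the ubiquitin ligase Mdm2 and is stabilised when the kinases Atm and Atr, acting partly through Chek2 and Chek1, signal broken DNA or stalled replication. It then binds DNA and raises the transcription of genes that stop the cell cycle, repair DNA, feed back on p53 or start cell death. Folate shortage limits thymidylate synthesis and can lead to uracil in DNA in cells that divide quickly, such as those of the colon epithelium. Much of the checkpoint itself acts by phosphorylation, which an RNA array does not measure.

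p53 recognises a pair of 10-base motifs, the p53 response element, which reads nearly the same on both strands. The 250 bases before each annotated start site were searched in RefSeq promoters of build GRCm38.p6, where 23 of the 30 named genes had an entry. A pair of adjacent motifs with a spacer of at most 1 base and at most 1 mismatch to the consensus was found for Cdkn1a, Ccng1 and Polk, and in 0.14% of all 32851 promoters. The single 10-base motif with no mismatch was present for 8 of the 23 genes, namely Aen, Ccng1, Cdkn1a, Ei24, Gadd45a, Mdm2, Polk and Sesn1, and in 7.13% of all promoters. Counted as promoters, the 23 genes had 29 entries, of which 8 held the single motif and 3 the pair. The sequences below are shown because the element is the DNA feature by which p53 binds its target genes, although this search found it for only 3 of them, with the paired motif in capitals. Cdkn1a lies on the plus strand and is shown from chr17:29090729-29090978, with the element at chr17:29090928-29090947. The stretch ends at the base before an annotated start site, which is the first base of the annotated gene. Whether other Cdkn1a starts lie further down was not examined. Ccng1 lies on the minus strand and only its element is shown, at chr11:40755462-40755481, with its first base 195 bases before a start site. The Polk element is on the minus strand at chr13:96519398-96519418, inside the annotated Polk gene and 231 bases before an alternative start.
Cdkn1a promoter: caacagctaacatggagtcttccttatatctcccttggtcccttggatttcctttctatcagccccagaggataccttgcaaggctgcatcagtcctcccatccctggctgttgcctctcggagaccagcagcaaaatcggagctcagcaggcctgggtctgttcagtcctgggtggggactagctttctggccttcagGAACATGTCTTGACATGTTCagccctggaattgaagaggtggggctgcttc
Ccng1 element: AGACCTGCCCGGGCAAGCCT
Polk element: GAACTAGCCTCAAACTTATTC
These matches describe letters in a window and are not evidence of binding in these colons.

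The targeted gene was measured first. The mean signal of the leading Shmt1 probe set was 493.5 ± 33.4 (SD, n = 3) units in the wild-type group, 417.9 ± 67.9 in the heterozygous group and 258.4 ± 25.3 in the mutants, so the mutant mean was 52.4% of wild-type. Another Shmt1 probe set stood at 19.6% of wild-type in the mutants and at 51.0% in the heterozygotes. A further tested one stood at 55.5% in the mutants. In mutant against wild-type the limma adjusted p was 0.596 for the leading probe set, 2.64e-05 for the one at 19.6% and 0.309 for the one at 55.5%. In heterozygous against wild-type it was 0.728, 0.232 and 0.584 in the same order. The ratio of 3′ to 5′ signal of beta-actin, a measure of RNA integrity and of amplification, ranged from 2.52 to 5.02. The 3 arrays numbered 1 in their genotype had ratios of 4.45 to 5.02, and the other 6 had 2.52 to 3.75. The same ratio of Gapdh did not split all 9 arrays in this way. Within each genotype, however, the Gapdh ratio also fell from array 1 to array 3. It was 2.90, 1.92 and 1.77 on wild-type arrays 1 to 3 and 2.18, 1.71 and 1.70 on the heterozygous ones. On the mutant arrays it was 2.262, 2.259 and 1.786. All 9 colon epithelium markers looked for were bright enough to be tested. Of the small intestine markers, Lct and Apoa4 were too dim to be tested, with mean signals of 15.8 and 15.3 units, while the ileal bile acid binding protein Fabp6 read 1970 to 4190 units.

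None of the 27 genes differed between genotypes after correction over all 13576 tested probe sets (limma, adjusted p at or under 0.05). The count was 0 of 27 in mutant against wild-type, where 0.0122% of all genes passed, 0 of 27 in heterozygous against wild-type, where 0% passed, and 0 of 27 in mutant against heterozygous, where 0.0122% passed. The test for any difference among the 3 genotypes also called 0 of 27, beside 0.0122% of all genes. The leading Shmt1 probe set was not called in any of these tests either, although its mutant mean was 52.4% of wild-type. A count of 0 thus does not by itself show that a gene was unchanged. The 3 comparisons share samples pair by pair, so their values are set side by side below and are not independent of each other.

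In mutant against wild-type, 1 of 27 genes, Trp53inp1, had an unadjusted p under 0.05, which is 3.70% beside 3.71% of all genes. It was lower in the mutants, as were 1.79% of all genes at that threshold. In heterozygous against wild-type there were 0 of 27, beside 7.46% of all genes. In mutant against heterozygous there were 3 of 27, or 11.1%, beside 7.6% of all genes. Of these, 2 were lower in the mutants, Trp53inp1 and Plk2 (2.82% of all genes), and 1 was higher, Rpa1 (4.78% of all genes). In the test for any difference, 1 of 27 had an unadjusted p under 0.05, again Trp53inp1 (adjusted p = 0.716), beside 6.25% of all genes.

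The size of difference that these 9 arrays could have missed was bounded for each gene. The 95% interval of the fold change lay wholly within a 2-fold change in either direction for 27 of 27 genes in mutant against wild-type (97.6% of all genes) and for 27 of 27 in heterozygous against wild-type (97.4%). In mutant against heterozygous it did so for 26 of 27 (97%), the exception being Brca2, whose upper bound was 1.04 on the log2 scale. Within a 1.5-fold change lay 18, 20 and 18 of the 27 intervals in the same order, beside 82%, 78.5% and 76.6% of all genes. For the other genes a difference above 1.5-fold still lay within the interval. The median log2 fold change of the 27 genes was 0.01 in mutant against wild-type, 0.06 in heterozygous against wild-type and -0.05 in mutant against heterozygous, and the median of all genes was 0.01, -0.02 and 0.02. The set held 15 higher and 12 lower values, then 16 and 11, then 10 and 17.

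**Figure D1:**
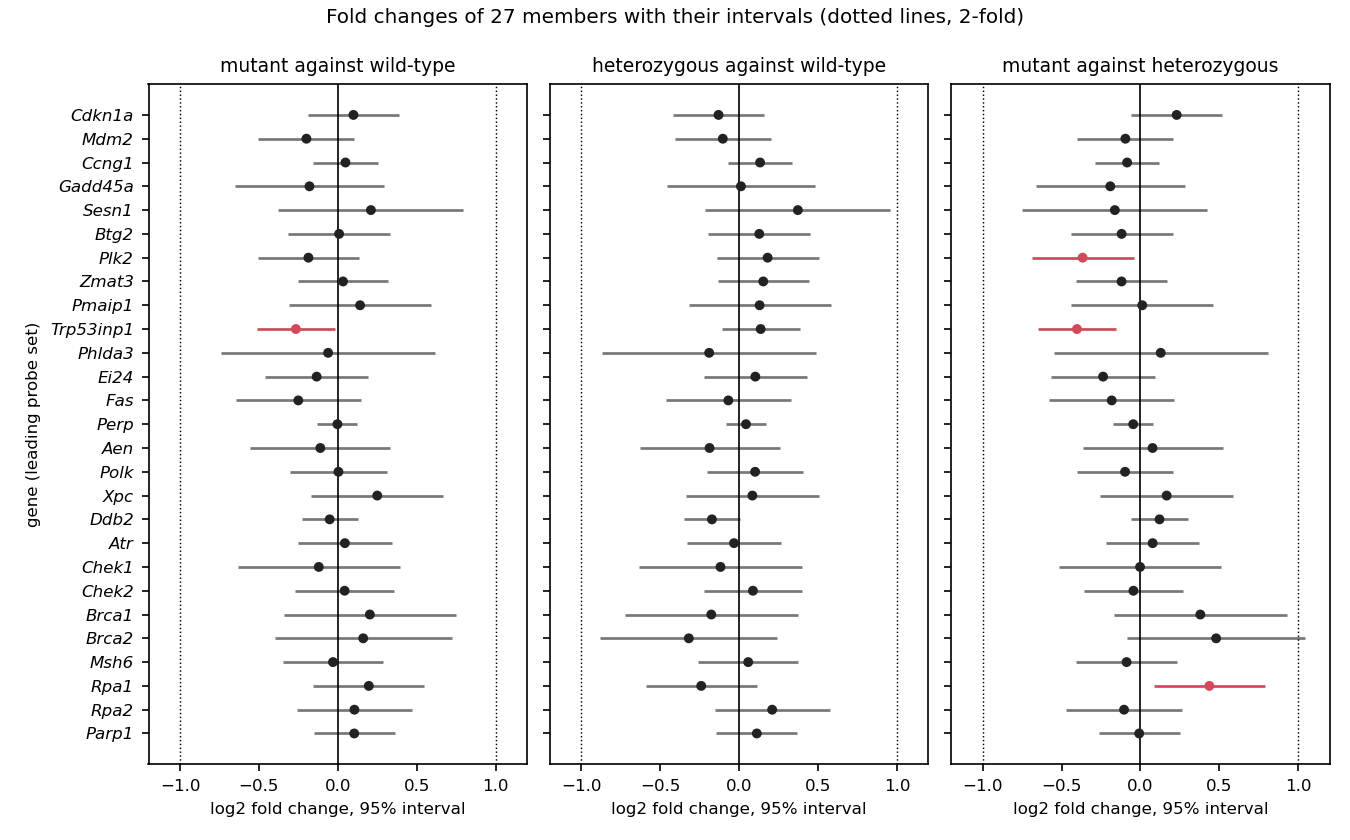
Log2 fold change (horizontal axis, points) with its 95% interval (bars) of the leading probe set of each of 27 genes (vertical axis), in the 3 comparisons; dotted lines mark a 2-fold change and red marks an unadjusted p under 0.05. All intervals but that of Brca2 in mutant against heterozygous stay inside the dotted lines, and red appears for Trp53inp1 in the left and right panels and for Plk2 and Rpa1 in the right one.

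Among targets that arrest the cell cycle or feed back on p53, all 8 listed genes were tested and 0 passed the adjusted threshold in any comparison. Their median log2 fold change was 0.02 in mutant against wild-type, 0.13 in heterozygous against wild-type and -0.12 in mutant against heterozygous.

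Cdkn1a encodes p21, the inhibitor of cyclin-dependent kinases through which p53 halts the cell cycle, and its promoter element is printed above. The 3 wild-type colons had signals of 3052, 2635 and 2222 units, the heterozygous 2712, 2057 and 2353, and the mutant 3335, 2997 and 2195. The genotypes overlapped, the highest value coming from a mutant mouse and the lowest from a heterozygous one. Means were 2636 ± 415, 2374 ± 328 and 2842 ± 586 units (SD, n = 3). The log2 fold change was 0.10 (SE 0.131, 95% interval -0.19 to 0.39) in mutant against wild-type, with a limma adjusted p of 0.998. In heterozygous against wild-type it was -0.13 (interval -0.42 to 0.16), and in mutant against heterozygous 0.23 (interval -0.06 to 0.52). A second Cdkn1a probe set gave -0.15, 0.01 and -0.16, with signs opposite to the first in all 3 comparisons.

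Mdm2, the ligase that degrades p53 and is itself a p53 target, had signals of 1093, 1292 and 1361 units in wild-type, 937.1, 1184 and 1435 in heterozygous and 998.8, 1064 and 1225 in mutant colons. The lowest and the highest of the 9 values were both heterozygous, and all genotypes overlapped. The log2 fold change was -0.20 (SE 0.139, interval -0.50 to 0.11, adjusted p = 0.998) in mutant against wild-type, -0.10 in heterozygous against wild-type and -0.10 in mutant against heterozygous. The second Mdm2 probe set gave -0.02, 0.16 and -0.19.

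Plk2, a polo-like kinase induced by p53, had signals of 199.6, 225.8 and 220.8 units in wild-type colons, 189.0, 303.3 and 268.6 in heterozygous colons and 164.5, 171.6 and 227.3 in mutant colons. A pair of heterozygous mice held the highest values, while the remaining heterozygous mouse lay among the mutants, so the groups overlapped. The log2 fold change in mutant against heterozygous was -0.37 (SE 0.147, interval -0.69 to -0.04), with a limma adjusted p of 0.649. The unadjusted p stayed under 0.05 in 5 of the 9 fits with an array left out, and without heterozygous mouse 2 the value was -0.25. Against wild-type the values were -0.19 (adjusted p = 0.998) in the mutants and 0.18 (adjusted p = 0.768) in the heterozygotes.

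The other arrest and feedback targets had no unadjusted p under 0.05 in their leading probe set. Ccng1, a cyclin G with a paired p53 motif upstream, ranged from 1974 to 2497 units, with log2 fold changes of 0.05, 0.13 and -0.08 in the order of comparisons above. Gadd45a, which takes part in growth arrest and repair, ranged from 547.5 to 1155 units, a spread seen inside the wild-type group alone. Its log2 fold changes were -0.18, 0.01 and -0.19. Btg2, an antiproliferative factor, gave 0.01, 0.13 and -0.12, and Zmat3, a p53-induced RNA-binding zinc finger protein, gave 0.03, 0.15 and -0.12. Sesn1, a stress-induced inhibitor of TORC1 signalling, had 3 tested probe sets. In mutant against wild-type they gave 0.21, -0.25 and -0.29. The first of these rested on wild-type mouse 3, at 332.4 units beside 623.4 and 622.2 in the other wild-type mice, and was -0.12 without it. Mutant against heterozygous, they gave -0.16, -0.10 and -0.42, the last with an unadjusted p under 0.05 and an adjusted p of 0.649.

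Among targets that promote cell death, 7 of 11 listed genes were tested and 0 passed the adjusted threshold. Their medians were -0.11, 0.04 and -0.05 on the log2 scale in the same order of comparisons.

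Trp53inp1, a stress protein that joins p53 in cell death and autophagy, had the smallest p of the set. Its leading probe set gave 2991, 2616 and 2729 units in wild-type, 2945, 2876 and 3168 in heterozygous and 2870, 2311 and 1886 in mutant colons. All 3 mutant values lay below all 3 heterozygous values, while one mutant mouse lay within the wild-type range. Means were 2779 ± 192, 2996 ± 153 and 2356 ± 494 units (SD, n = 3), the mutant spread being the widest.

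In mutant against heterozygous, the Trp53inp1 log2 fold change was -0.40 (SE 0.112, interval -0.65 to -0.16), with a limma adjusted p of 0.504. The unadjusted p stayed under 0.05 whichever of the 9 arrays was left out, and the value then ran from -0.52 to -0.28. In mutant against wild-type it was -0.27 (SE 0.112, interval -0.51 to -0.02, adjusted p = 0.998). Without mutant mouse 3 that value was -0.14, and the unadjusted p stayed under 0.05 in 4 of the 9 fits with an array left out. In heterozygous against wild-type it was 0.14 (adjusted p = 0.771).

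A second Trp53inp1 probe set read 105.8, 92.8 and 140.7 units in wild-type, 86, 116.3 and 185.4 in heterozygous and 79.3, 75.2 and 91.9 in mutant colons. Its fold changes had the same signs as the first: -0.36 (adjusted p = 0.998), 0.10 (adjusted p = 0.928) and -0.46 (adjusted p = 0.655). Which groups were apart depended on the scale. On the deposited scale the mutant values lay below all wild-type ones and overlapped the heterozygous ones, and after normalisation they lay below all heterozygous ones and overlapped the wild-type ones.

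**Figure D2:**
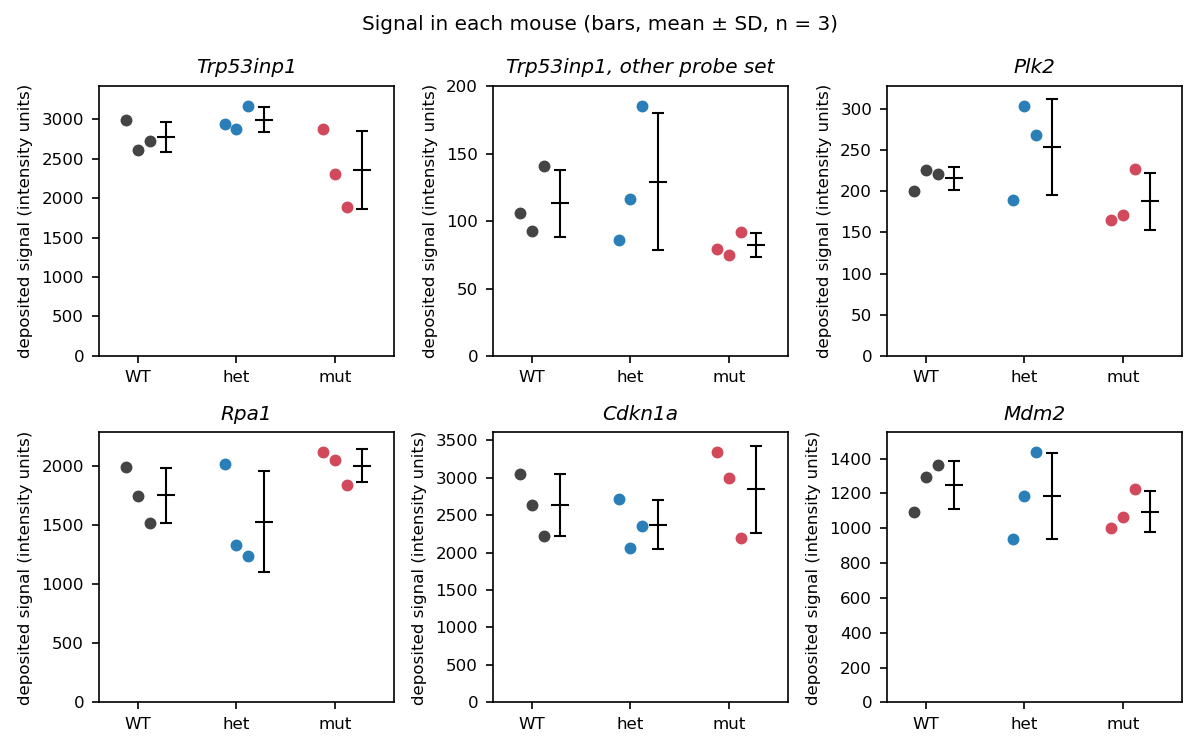
Deposited signal (vertical axis, linear intensity units from 0) in each of 3 wild-type (WT), 3 heterozygous (het) and 3 mutant (mut) mice, as points beside the mean ± SD, for Trp53inp1 (both probe sets), Plk2, Rpa1, Cdkn1a and Mdm2. The mutant points of the bright Trp53inp1 probe set run from 1886 to 2870 and lie below the heterozygous points at 2876 to 3168; those of its second probe set lie below all wild-type points, and the groups overlap in the other 4 panels.

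The remaining death targets showed no unadjusted p under 0.05. Perp, a p53 target and desmosome protein of epithelia, had the smallest gap between genotype means of the 27 genes, with of 4310 ± 703, 4292 ± 374 and 4250 ± 627 units (SD, n = 3) in wild-type, heterozygous and mutant colons. Its log2 fold changes were 0.00, 0.04 and -0.05, each with an interval inside -0.17 to 0.17. Fas, a death receptor, read 167.9, 225.0 and 262.7 units in wild-type, 137.5, 259.0 and 246.5 in heterozygous and 147.2, 189.8 and 199.0 in mutant colons. After normalisation its mutant values all lay below the wild-type ones. Fas was the only gene of 27 with no overlap in that comparison, beside 8.18% of all genes apart in either direction. However, its log2 fold change was -0.25 (interval -0.65 to 0.15, adjusted p = 0.998). On the deposited scale the groups overlapped.

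Phlda3, an inhibitor of Akt signalling, was the most variable death target, from 68.0 to 199.4 units, and both extremes were mutant mice. Aen, an apoptosis-enhancing nuclease, was also highest and lowest in mutants, at 1348 and 661.1 units. Pmaip1, the BH3-only protein Noxa, ranged from 337.9 to 677.2 units with both extremes in wild-type mice. Ei24, a p53-induced protein of the endoplasmic reticulum, gave -0.13, 0.10 and -0.24. Bbc3, which encodes the BH3-only protein Puma, and the death receptor Tnfrsf10b had mean signals of 11.2 and 24.2 units and were not tested.

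**Figure D3:**
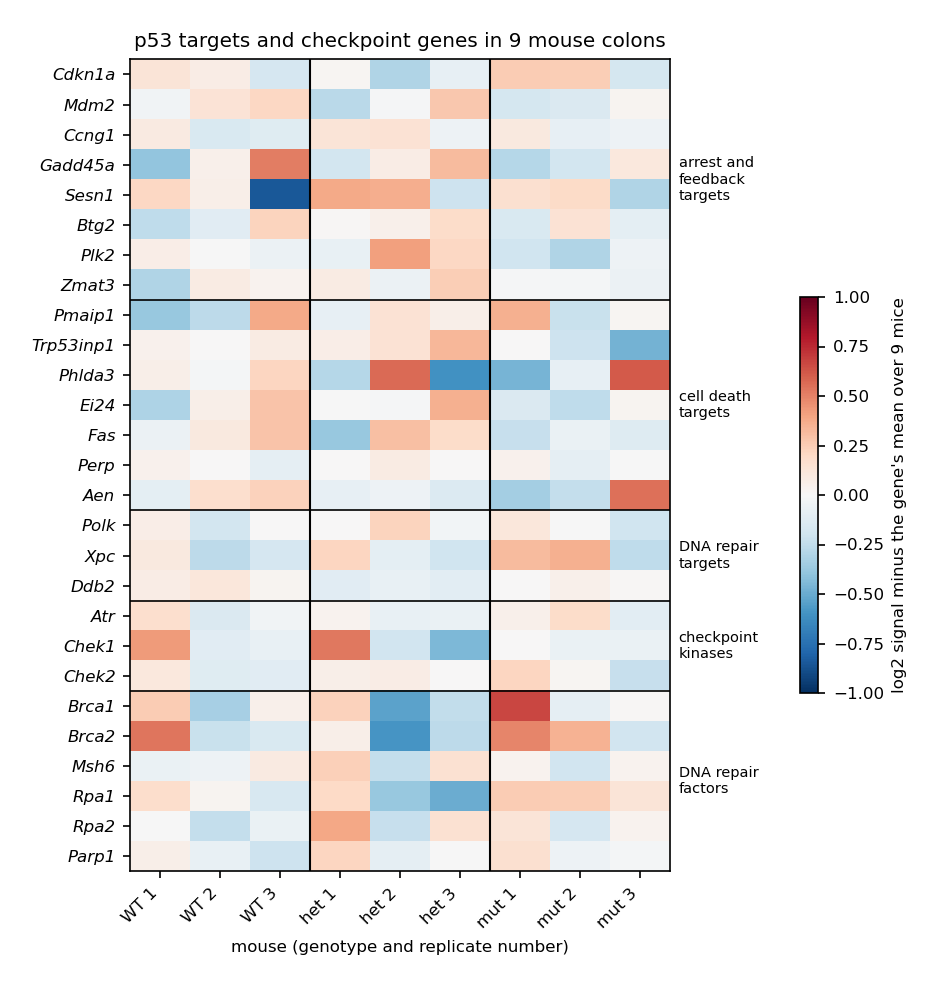
Normalised log2 signal of each of 27 genes (rows, grouped by role) in each of the 9 mice (columns, by genotype and replicate number), as the difference from that gene's mean over the 9 mice (colour scale from -1 to 1). Most rows differ in colour between mice of one genotype, and Trp53inp1 is lowest in mutant mouse 3.

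Xpc, Ddb2 and Polk, listed here as DNA repair targets of p53, had no unadjusted p under 0.05. Ddb2, the damage sensor for ultraviolet lesions, read 1467, 1529 and 1428 units in wild-type, 1286, 1355 and 1318 in heterozygous and 1402, 1466 and 1436 in mutant colons. All heterozygous values lay below all wild-type and all mutant values. It was the only gene of 27 apart in heterozygous against wild-type (14.5% of all genes were), and with Trp53inp1 one of 2 apart in mutant against heterozygous (12.3% of all genes). The log2 fold change in heterozygous against wild-type was -0.17 (SE 0.0811, interval -0.35 to 0.01, adjusted p = 0.633). The other Ddb2 probe set gave 0.22 in the same comparison, with the opposite sign. Xpc, which recognises distorted DNA for excision repair, gave 0.25, 0.08 and 0.17, and the translesion polymerase Polk gave 0.00, 0.10 and -0.10.

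The 3 checkpoint kinases tested had no unadjusted p under 0.05. Atr, the kinase for stalled replication forks, read 203.8 to 255.4 units over the 9 mice, and its log2 fold changes were 0.04, -0.03 and 0.08. Chek2, which acts below Atm, read 211.1 to 250.2 units and gave 0.04, 0.09 and -0.04. Chek1, which acts below Atr, read 108.7 to 193.8 units, both in heterozygous mice, and gave -0.12, -0.12 and 0.00 with intervals reaching -0.64. Atm, at 46.7 to 67.6 units, was not tested.

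Of the DNA repair factors that are not chosen as p53 targets, all 6 were tested and 0 passed the adjusted threshold. Rpa1, the large subunit of the protein that coats single-stranded DNA, read 1989, 1743 and 1520 units in wild-type, 2015, 1335 and 1234 in heterozygous and 2112, 2050 and 1841 in mutant colons. A pair of heterozygous mice was lowest, but the remaining one stood among the mutants, so the groups overlapped. The log2 fold change in mutant against heterozygous was 0.44 (SE 0.16, interval 0.09 to 0.79), with a limma adjusted p of 0.648. The other Rpa1 probe set gave 0.17 (adjusted p = 0.801), and the unadjusted p of the leading one stayed under 0.05 in 5 of the 9 fits with an array left out. Without heterozygous mouse 1 the value was 0.65, and without heterozygous mouse 3 it was 0.30. Against wild-type the values were 0.20 (adjusted p = 0.998) in mutants and -0.24 (adjusted p = 0.717) in heterozygotes.

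Brca2, a tumour suppressor of DNA repair, had the widest gap between genotype means of the 27 genes, with 80.4 ± 19.8, 63.2 ± 13.9 and 90.3 ± 17.0 units (SD, n = 3) in wild-type, heterozygous and mutant colons. Its log2 fold change of 0.48 in mutant against heterozygous had an interval of -0.08 to 1.04 (adjusted p = 0.687). Brca1, its partner in recombination repair, gave 0.20, -0.18 and 0.38 with intervals that all spanned 0. The mismatch repair protein Msh6 gave -0.03, 0.06 and -0.09, the Rpa2 subunit 0.11, 0.21 and -0.10, and the break sensor Parp1 0.10, 0.11 and -0.01.

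Values varied between mice of one genotype. The median SD within a genotype was 0.19 on the log2 scale for the 27 genes and 0.17 for all genes, and the median gap between the highest and the lowest genotype mean was 0.19 and 0.18. For some genes the array numbers stood apart. After normalisation the array numbered 1 was highest in each genotype for 7 of 27 genes (25.9%, beside 9.97% of all genes), namely Cdkn1a, Chek1, Brca1, Brca2, Rpa1, Rpa2 and Parp1. It was lowest in each genotype for 4 of 27 (14.8%, beside 8.66%), namely Mdm2, Gadd45a, Btg2 and Fas. These counts and names depended on the scale. On the deposited scale it was highest for 6 of 27, namely Cdkn1a, Ccng1, Perp, Brca2, Rpa1 and Parp1, beside 10.5% of all genes. There it was lowest for 6 of 27, namely Mdm2, Gadd45a, Btg2, Plk2, Fas and Aen, beside 20.4% of all genes. In each genotype the array numbered 1 also had the highest mean log2 level of the proliferation markers described below. That level was 8.78, 8.94 and 9.11 in wild-type, heterozygous and mutant mice, beside 8.51 to 9.02 on the other 6 arrays. The arrays numbered 1 also had the highest actin 3′ to 5′ ratios. With the ratio as a covariate in the fit, a choice made after seeing the data, 0 of 27 genes passed the adjusted threshold in any comparison. The reported fit also called 0 of 27, so this count cannot show whether the ratio bears on the values. Leaving the 3 arrays out together gave a Trp53inp1 log2 fold change of -0.57 in mutant against heterozygous and -0.38 in mutant against wild-type.

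Other genes of the pathway were examined as 4 lists, and 0 genes of any list passed the adjusted threshold in any comparison. Among 29 tested of 40 other p53 target genes, 2, 2 and 1 had an unadjusted p under 0.05 in the 3 comparisons, all lower. These shares of 6.90%, 6.90% and 3.45% stand beside 3.71%, 7.46% and 7.6% of all genes. In mutant against wild-type the genes were Dram1, an autophagy regulator, at -0.36 (adjusted p = 0.998), and the membrane protein Cd82 at -0.28 (adjusted p = 0.998). In heterozygous against wild-type they were Sfn, an adaptor of the cell cycle checkpoint, at -0.50 (adjusted p = 0.584), and the lipid transfer protein Pltp at -0.24 (adjusted p = 0.601). In mutant against heterozygous it was Ddit4, an inhibitor of TORC1 signalling, at -0.41 (adjusted p = 0.648). The list medians were -0.03, -0.02 and 0.01.

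Genes with an unadjusted p under 0.05 in the other 3 lists are named next, beside 3.71%, 7.46% and 7.6% of all genes. They were 1, 2 and 1 of 12 regulators of p53 in the 3 comparisons (8.33%, 16.7% and 8.33%). Among checkpoint signalling genes they were 1, 1 and 3 of 18 (5.56%, 5.56% and 16.7%). Among recombination and mismatch repair genes they were 0, 2 and 2 of 7 (0%, 28.6% and 28.6%). Among 12 tested of 18 regulators of p53, Hipk2, a kinase that phosphorylates p53 for cell death, gave -0.37 (adjusted p = 0.998) in mutants and -0.29 (adjusted p = 0.609) in heterozygotes, each against wild-type and on the log2 scale. Cop1, a ubiquitin ligase that targets p53, read 893.3, 902.0 and 890.3 units in wild-type, 638.9, 725.4 and 678.6 in heterozygous and 710.7, 817.0 and 923.1 in mutant colons. All heterozygous values lay below all wild-type ones, with a log2 fold change of -0.40 (adjusted p = 0.483). Cop1 was the only one of the 12 regulators with no overlap in that comparison, or 8.33%, beside 14.5% of all genes. Both shares count either direction. In mutant against heterozygous Cop1 gave 0.26 (adjusted p = 0.649).

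Among 18 tested of 24 checkpoint signalling genes, the break sensor Nbn gave -0.30 (adjusted p = 0.998) in mutant against wild-type. The repair kinase Prkdc gave -0.35 (adjusted p = 0.609) in heterozygous against wild-type and 0.36 (adjusted p = 0.655) in mutant against heterozygous. In that last comparison the damage-marking histone H2ax gave 0.56 (adjusted p = 0.648) and the mitotic kinase Cdk1 0.39 (adjusted p = 0.657). Among 7 tested of 20 recombination and mismatch repair genes, Fanca of the Fanconi pathway gave -0.48 (adjusted p = 0.595) in heterozygous against wild-type and 0.49 (adjusted p = 0.649) in mutant against heterozygous. Parp2 gave 0.29 (adjusted p = 0.609) and -0.30 (adjusted p = 0.654) in the same 2 comparisons.

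Many repair factors and Cdk1 are expressed more in dividing cells, so proliferation markers were read beside them. Of 14 tested markers, 12 had higher values in mutant than in wild-type and 14 had higher values in mutant than in heterozygous colons. The medians were 0.19 and 0.23 on the log2 scale, beside 0.01 and 0.02 for all genes, and 0 passed the adjusted threshold. In mutant against wild-type 3 (21.4%) had an unadjusted p under 0.05, all higher, beside 3.71% of all genes. In heterozygous against wild-type 1 (7.14%) did, beside 7.46%. In mutant against heterozygous 2 (14.3%) did, both higher, beside 7.6%. The activator of mitotic exit Cdc20 gave 0.64 (adjusted p = 0.998) and cyclin Ccnb2 0.44 (adjusted p = 0.998) in mutant against wild-type. The mean log2 level of the markers spanned 8.73 to 8.78 in wild-type, 8.51 to 8.94 in heterozygous and 8.78 to 9.11 in mutant mice. In whole tissue, fewer cells of a type and less RNA per cell cannot be told apart. The part of proliferation in the repair factor values was not tested.

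Interferon-induced genes and T cell markers varied inside genotypes. Of 10 tested interferon-induced genes, 4 (40%) had an unadjusted p under 0.05 in mutant against wild-type, beside 3.71% of all genes. In heterozygous against wild-type 3 (30%) did, beside 7.46%. All 10 had lower values in mutant and in heterozygous than in wild-type colons, with medians of -0.99 and -0.95, and 0 passed the adjusted threshold. Their mean log2 level spanned 8.86 to 9.55 in wild-type, 7.10 to 9.17 in heterozygous and 7.55 to 9.13 in mutant mice. The 2 tested of 5 T cell markers spanned 7.77 to 9.34, 6.83 to 8.98 and 6.94 to 8.91 in the same order. Of 5 smooth muscle markers, 3 (60%) had an unadjusted p under 0.05 in heterozygous against wild-type, beside 7.46% of all genes. All 5 had lower values in heterozygous than in wild-type colons, with a median of -0.21 and a lowest adjusted p of 0.323. Their mean log2 level spanned 11.67 to 11.94 in wild-type, 11.48 to 11.66 in heterozygous and 11.72 to 11.82 in mutant mice. All 4 fibroblast and all 5 macrophage markers had lower values in mutant than in wild-type colons, with medians of -0.18 and -0.26. In both lists 0 genes had an unadjusted p under 0.05 there. In heterozygous against wild-type 2 of the 4 fibroblast markers (50%) did, both lower, beside 7.46% of all genes. In mutant against heterozygous 2 did, 1 higher and 1 lower, and 2 of 4 goblet cell markers did, both higher (50% each), beside 7.6%. Of 2 tested T cell and 2 tested adipocyte markers, 1 of each list (50%) did in mutant against wild-type, beside 3.71%. The 2 tested of 5 adipocyte markers had lower values in mutant than in wild-type colons, with a median of -0.63, and their mean level spanned 10.71 to 11.21, 10.72 to 11.46 and 9.65 to 10.83. The part of these cells in the values of the p53 genes, those of Ddb2, Rpa1 and Trp53inp1 included, was not tested.

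**Figure D4:**
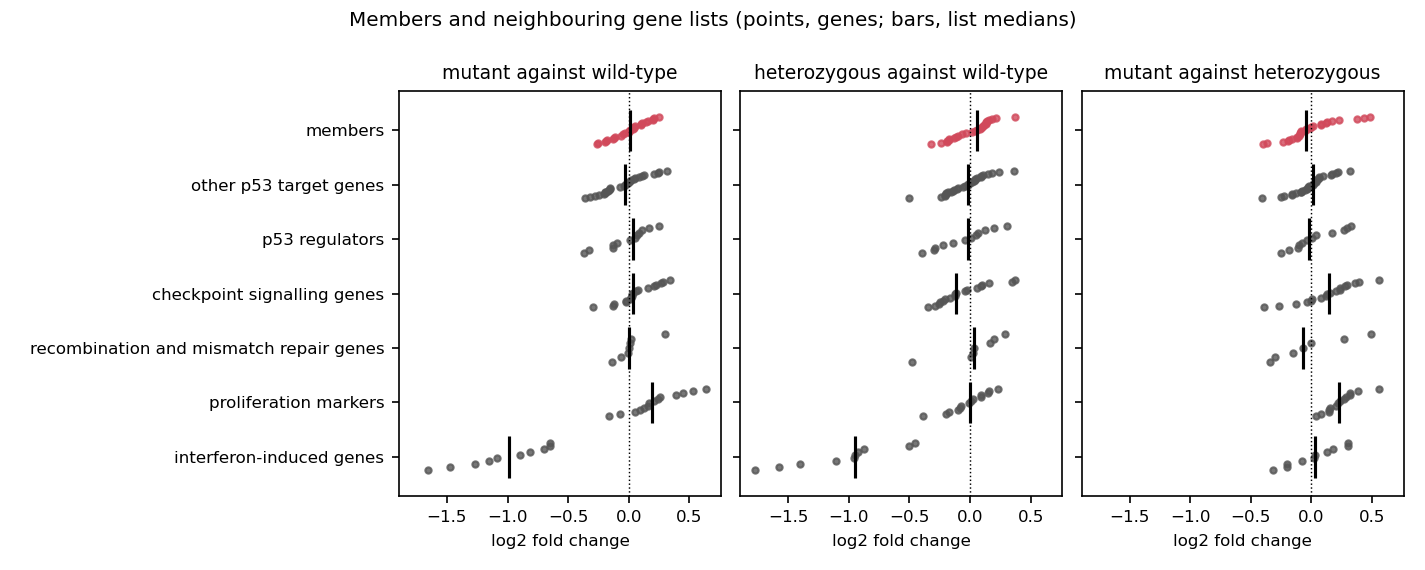
Log2 fold change (horizontal axis) of every tested gene (points) of the p53 and checkpoint set and of 6 other lists (vertical axis), with list medians as bars, in the 3 comparisons. Medians of the 5 p53, checkpoint and repair lists lie between -0.12 and 0.14, while interferon-induced genes have medians of -0.99 and -0.95 in the first 2 panels.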

How the data were processed

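The data are linear signal intensities per probe set that the authors made with GCOS, per the submitters' processing notes (version and settings not given in the sources used here), and deposited. Their mean after trimming 2% at each end was about 500.1 in every array, while array medians on the log2 scale spread over 0.29. Log2(signal + 16) was quantile normalised (R 4.3.3, limma 3.58.1). Of 22690 probe sets, 64 controls were left out, and those whose mean normalised log2 value was under the 40th percentile, equal to 75.5 units on the normalised scale, were not tested, which left 13576. Probe sets carried 1 gene symbol (20380), several (691) or none (1555) in the platform annotation, and only those with 1 were named. The functions lmFit and eBayes (with a trend) fitted all 9 arrays with 1 mean per genotype, with Benjamini-Hochberg adjustment over all tested probe sets. A fold change is on the log2(signal + 16) scale, which understates changes of low values, and the number of arrays limits the precision. Replicates are labelled biological. Members and lists were chosen with earlier results of these data known. All members are named, and values per mouse are given for Cdkn1a, Mdm2 and members with an unadjusted p under 0.05; Fas, Ddb2 and Cop1 were added after their values were seen. From other lists, at most 4 genes with the smallest unadjusted p under 0.05 are named; Dram1, the fifth of its list, and Ighm, Jchain, Fabp6, Lct and Apoa4 were named after their values were seen. The fit was tested on simulated data. The alternatives tried covered normalisation, pseudocount, filter, spread estimate, array weights, probe set choice, replicate block and leaving arrays out.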

Additional observations from a re-analysis of the deposited data

How the results depend on the processing

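Under 24 alternatives, 0 of the 27 members passed the adjusted threshold in each of the 3 comparisons, as in the reported fit, and 0 did in the test for any difference under its 23 alternatives. The lowest adjusted p of a member under any alternative was 0.105, for Ddb2 in heterozygous against wild-type. The count of members at an unadjusted p under 0.05 depended on the settings. In heterozygous against wild-type (0 reported) it was 7 with array weights, 2 with no filter, 2 with the actin ratio as a covariate and 1 without the 3 arrays numbered 1. The share of all genes at that threshold was 7.46% as reported and 19.3%, 7.09%, 11.8% and 4.08% under these. In mutant against heterozygous (3 reported) it was 5 with array weights (13.1% of all genes, 7.6% as reported) and 1 with median centring (5.76%). In mutant against wild-type (1 reported) it was 5 with array weights (16.1% of all genes, 3.71% as reported) and 0 with median centring, with values as deposited, without the trend and with the mean over probe sets. With array weights, all probe sets called numbered 9, 134 and 4 in mutant against wild-type, heterozygous against wild-type and mutant against heterozygous, beside 3, 0 and 3 reported. With one array left out in turn, the unadjusted counts ran from 0 to 2 in mutant against wild-type, 0 to 1 in heterozygous against wild-type and 1 to 6 in mutant against heterozygous. In that last comparison the count was 6 without heterozygous mouse 1, 5 without mutant mouse 3, and 1 without heterozygous mouse 2 or 3 or mutant mouse 1 or 2. In mutant against wild-type it was 2 without mutant mouse 3 and 0 without mutant mouse 2 or wild-type mouse 2 or 3, and in heterozygous against wild-type 1 without heterozygous mouse 1 or 2. The medians moved to 0.103 with a filter at the 60th percentile in heterozygous against wild-type, to -0.0884 without the 3 arrays numbered 1 in mutant against heterozygous and to 0.0755 with array weights in mutant against wild-type. Intervals within a 2-fold change numbered 17 of the 17 members tested with the 60th percentile filter in each comparison, where fewer members are tested, and 25 to 27, 24 to 27 and 25 to 27 with one array left out. Apart from that filter, the cause of these moves was not tested.

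Trp53inp1 in mutant against heterozygous had an unadjusted p under 0.05 in 23 of 24 alternatives, the exception being median centring, Plk2 in 18 of 23 and Rpa1 in 18 of 24. Same-numbered arrays deviated together with r over 0.1 in 5 of 9 pairs (-0.06 to 0.46), and 6 of 9 arrays correlated best with one of their own number. The labels do not say whether a number marks a shared day or litter. The reported fit does not pair the mice, and whether same-numbered arrays share a factor was not tested. With the replicate number as a block, 0 members passed the adjusted threshold, and those at an unadjusted p under 0.05 numbered 1, 2 and 6 in mutant against wild-type, heterozygous against wild-type and mutant against heterozygous, while the share of all genes rose to 6.95%, 11.7% and 12.9%.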

Other observations

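Of 4 B and plasma cell markers, 2 were tested, and they did not run together. Ighm, the constant region of immunoglobulin M, read 2303, 1902 and 1255 units in wild-type colons, 10.6, 2328 and 2831 in heterozygous colons and 2865, 15.9 and 2.6 in mutant colons. It was thus near the bottom of the scale in heterozygous mouse 1 and mutant mice 2 and 3. Jchain, the joining chain of secreted antibodies, read between 3908 and 7678 units in all 9. Aqp8, a water channel of the colon epithelium, ran from 30 units in a heterozygous mouse to 645.8 in a mutant one. Whether these differences between mice bear on the p53 genes was not tested.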
